A study of Mus musculus with 6 samples.

Results

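The comparison described here set mouse embryonic stem (ES) cells 6 h after addition of an auxin analog against the same cells before addition, across all genes that could be tested. It used 4 of the 6 libraries of the series, 2 at 0 h and 2 at 6 h. The 2 libraries taken at 3 h entered the filter, the scaling and the estimate of the spread. Of 55487 genes in the counts deposited, 15748 were tested. The D6AdP line was homozygous for DDX6-AID-mCherry, heterozygous for DCP1a-EGFP and carried an OsTIR1-FLAG transgene, and these alleles were shared by the 0 h and 6 h groups. AID is a degron tag, and OsTIR1 is a plant F-box protein that, when an auxin is bound, hands tagged proteins to the proteasome. The 0 h libraries came from cells that had no analog, and the 6 h libraries from cells kept for 6 h with 500 nM of 5-Ph-indole-3-acetic acid. All cells were of 1 line, grew on mitomycin-treated fibroblast feeders and were kept with leukemia inhibiting factor (LIF), with PD0325901 to block MEK and with CHIR99021 to block GSK3. No library of treated cells without the degron and no untreated library of 6 h was analysed here, so loss of DDX6, the analog itself and the hours in culture cannot be told apart. Whether the 2 libraries of a group came from separate cultures is not in the labels, so the p-values cover the spread between these libraries alone, which may be technical.

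DDX6 is an RNA helicase of the DEAD box family. It binds 4E-T, LSM14 and PAT1 proteins, holds mRNAs back from translation, promotes decapping of mRNAs whose poly(A) tail has been shortened by the CCR4-NOT complex, and is needed for processing bodies, the cytoplasmic granules in which such mRNAs gather. In ES cells it also works downstream of microRNAs, of which the miR-290 family is the most abundant there. A protein with these roles can act on the level of an mRNA and on its translation, and RNA-seq reads only the first of these.

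The 4 libraries held 16357142 to 21846959 counts. A count of 3 stood for 0.139 to 0.181 CPM (the count relative to library size, scaled by TMM factors of 0.988 to 1.018), and replicates correlated at r = 0.994 to 0.996 for log2 CPM across genes. Both 6 h libraries stood apart on the first principal component, at 25.5 and 22.9 against -13.7 and -13.1 at 0 h. Mean log2 CPM of the feeder fibroblast markers was 8.19 and 8.08 at 0 h and 8.16 and 8.05 at 6 h, and the share of mitochondrial counts was 2.94% and 3.04% at 0 h and 2.96% and 3.10% at 6 h. A few genes stood out in single libraries. Ldb1, a LIM domain cofactor, measured 190.5 and 205 CPM at 0 h, 184 CPM in replicate 1 of 6 h and 1940 CPM in replicate 2 of 6 h, and its log2 fold change went from 2.43 to -0.10 without that library. Lars2, which takes up ribosomal RNA reads in many mouse tables, measured 153 and 374 CPM at 0 h and 940 and 376 CPM at 6 h. Both were called. The groups of Ldb1 overlapped, those of Lars2 lay 374 against 376 CPM apart at their nearest and its call was lost without replicate 1 of 6 h, and neither is given a direction here.

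In all, 3515 genes passed a Benjamini-Hochberg adjusted p of 0.05 in edgeR's quasi-likelihood test (22.3% of the genes tested), of which 1575 were higher at 6 h (10%) and 1940 lower (12.3%). Most changes were small. The median fold change was 1.29 among genes that were higher and 1.18 among genes that were lower, and 132 of the former and 88 of the latter moved by at least 2-fold. At least 1.5-fold, 361 genes were higher (2.29%) and 220 lower (1.40%), and at least 3-fold 21 were higher and 27 lower. The genes that were lower held 27.3% and 27.4% of all counts at 0 h and 24.2% and 24.5% at 6 h. The genes that were higher went from 6.19% and 6.56% to 8.64% and 8.16%. Among them, those higher by at least 1.5-fold, with Ldb1 and Lars2, held 0.391% and 0.748% at 0 h. At 6 h these held 1.684% and 1.161%, so part of the rise lay in genes whose replicates differed. Without scaling factors the split moved, to 2128 higher and 1457 lower, and the median of all genes shifted by 0.04 on the log2 scale. With DESeq2 1701 genes were called, each of them with the sign given by edgeR, and 1538 genes were called in all 6 fits without 1 library.

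**Figure D1:**
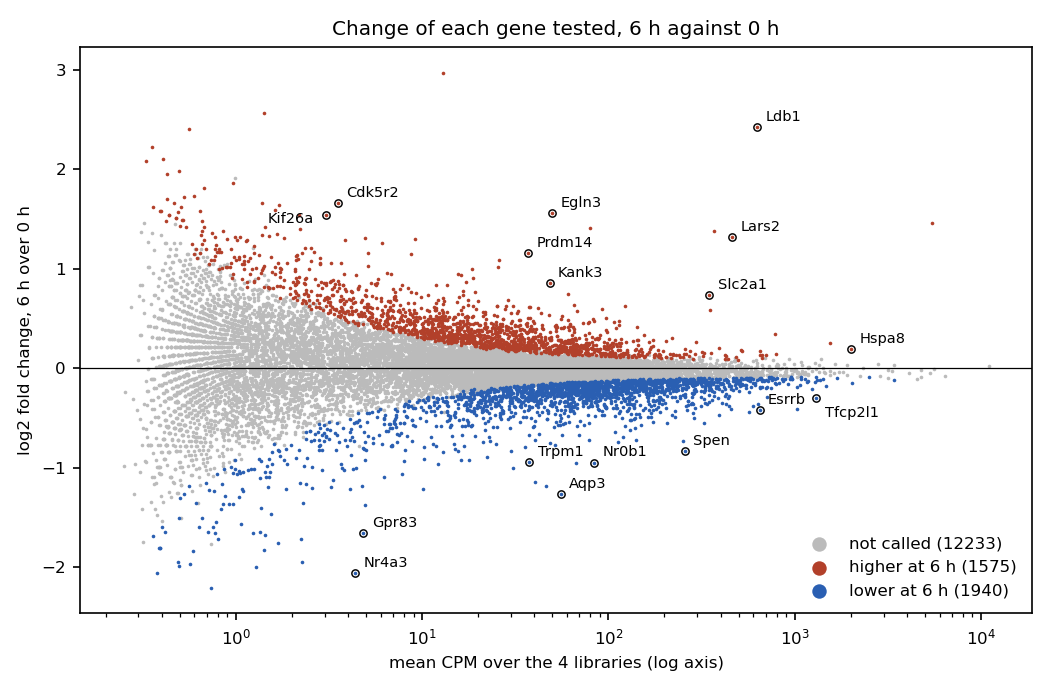
The log2 fold change of each of the 15748 genes tested (vertical axis, 6 h over 0 h) against its mean CPM over the 4 libraries (horizontal axis, log scale), with 1575 genes higher in red, 1940 lower in blue and the rest in grey. Genes with large folds lie at low CPM, the blue genes crowd the right side, and Egln3, Slc2a1, Spen and Aqp3 are far from 0 for their level.

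The direction of change went with the level of the gene. Genes were split into quintiles by their mean CPM over the 4 libraries. In the lowest quintile 3.87% were higher and 2.38% lower, in the middle quintile 16.06% and 9.11%, and in the highest quintile, above 76.7 CPM, 6.32% were higher and 28.57% lower. The median CPM was 18.99 for the genes that were higher and 69.7 for those that were lower, and across 15748 genes the log2 fold change followed mean CPM at rho = -0.181. Level sets the depth behind a call as well, since in the lowest quintile all 122 higher and 75 lower genes had moved by at least 1.5-fold, and in the highest quintile 9 and 10 had. For the gene groups below, a count of members that were lower is therefore best read beside both shares, 12.3% of all genes and 28.57% of the most abundant quintile. A count of members that were higher is best read beside 10% of all genes. Counts from other fits belong beside the smaller totals of those fits, such as 613 higher and 1088 lower with DESeq2.

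The shares also varied with sequence features. Over quintiles of 3' UTR length, from below 417 nt to above 2662 nt, the share higher went from 7.77% to 13.14% and the share lower from 9.92% to 16.73%, with medians of -0.0059 and -0.0005. GC content at the third codon position had 8.83% higher and 15.25% lower in its lowest quintile and 13.24% and 12.26% in its highest. Tertiles of this GC content were also compared within tertiles of mean CPM. From lowest to highest GC the share lower went from 2.51% to 4.83% in the lowest CPM tertile. It went from 9.58% to 11.1% in the middle and from 26.09% to 25.28% in the highest CPM tertile. The share higher rose in each, from 7.36% to 11.61%, 13.68% to 16.49% and 6.83% to 9.07%. The medians of the GC quintiles differed by 0.0383. Leaving out 1 library gave 0.0192 (6 h, replicate 1), 0.0597 (0 h, replicate 1) or 0.0656 (6 h, replicate 2), and a GC offset gave 0.0137. The 3' UTR GC quintiles differed by 0.05 in median, which fell to 0.02 with a GC offset in the fit. From the lowest to the highest quintile of coding length the share higher went from 6.13% to 16.2% and the share lower from 11.35% to 14.92%, and the medians differed by 0.03. mRNAs with 6 or more ATTTA pentamers, the core of AU-rich elements, were higher in 12.13% and lower in 16.50% of cases, against 9.14% and 10.57% for mRNAs with none. The former shares lay near the 13.14% and 16.73% of the longest 3' UTR quintile. Pentamers were not compared within quintiles of length, so pentamers and length cannot be told apart here. By class, 1500 of 13717 protein-coding genes were higher and 1845 lower, and of 311 lincRNA genes 22 were higher and 27 lower. Processed pseudogenes, of which 576 were tested, had 2 higher and 10 lower.

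**Figure D2:**
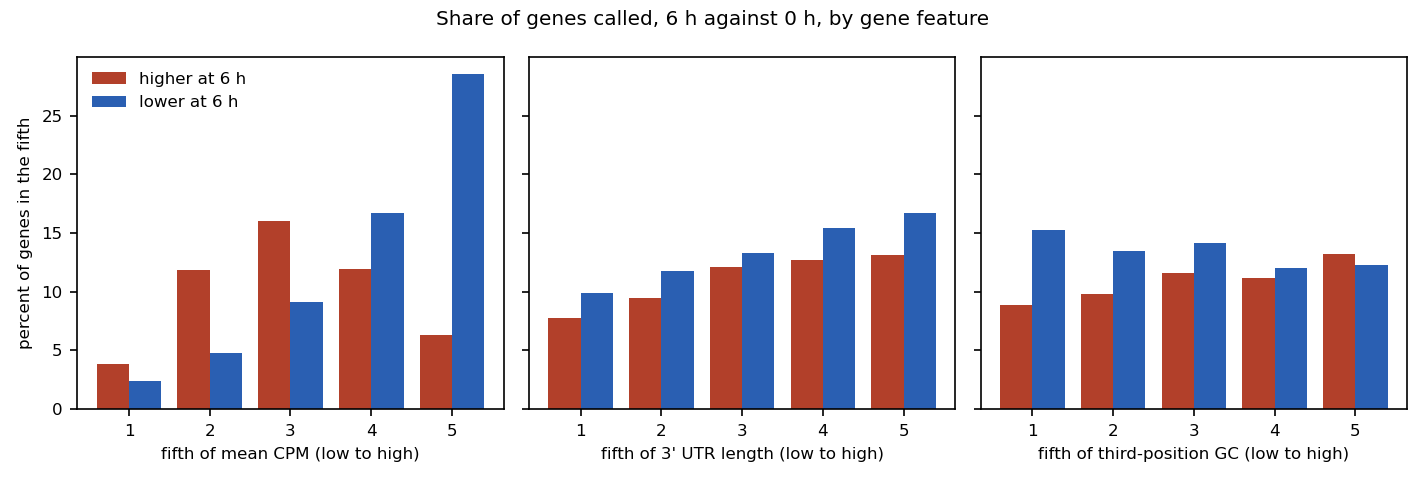
Percent of genes called higher (red) and lower (blue) in quintiles of mean CPM, 3' UTR length and GC at the third codon position, from the lowest to the highest quintile. The share lower climbs from 2.38% to 28.57% with CPM, both shares rise with 3' UTR length, and the GC panel shows the smallest differences.

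The mRNA of the tagged gene was not called, and calls among its partners were of small size. Ddx6 mRNA measured 267.5 and 249.9 CPM at 0 h and 258 and 247 CPM at 6 h, with overlapping groups (log2 fold change -0.03 ± 0.04, SE, adjusted p = 0.58). Depletion works on protein, and the mRNA level does not check it. Of 21 DDX6 partners and decapping factors 4 fell and 3 rose, all by less than 0.24 on the log2 scale. Leaving out 1 library gave 1 to 3 that rose and 2 to 4 that fell, with 1 rise without replicate 1 of 0 h or replicate 2 of 6 h, and 2 falls without either 3 h library or replicate 2 of 6 h. DESeq2 gave 1 and 2. Patl1, the PAT1 protein that links DDX6 to LSM proteins and decapping, fell from 111 and 116 to 97.7 and 100.1 CPM (-0.20 ± 0.04). Dcp2, the decapping enzyme, fell by 0.18. Pnrc1, a coactivator that also binds DCP1A, rose from 58.1 and 63.98 to 72.8 and 70.7 CPM (0.23 ± 0.05).

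Among 21 genes of CCR4-NOT and deadenylation, the step before decapping, 6 fell and 2 rose. The deadenylase genes with the highest and the lowest value in the list went opposite ways. Cnot6l, a CCR4-type nuclease, rose from 25.6 and 26.7 to 39.01 and 37.9 CPM (0.56 ± 0.07, adjusted p = 1.6e-05). Cnot8, a CAF1-type nuclease, fell from 76.5 and 74.8 to 53.8 and 56.8 CPM (-0.45 ± 0.05, adjusted p = 4.9e-06). The antiproliferative adaptors that recruit the complex were split as well. Btg1 fell by 0.38 and Tob2 by 0.33, and Tob1 rose by 0.23. Of 19 genes of the microRNA pathway 4 rose and 3 fell. The rises were 1 without replicate 1 of 0 h or replicate 1 of 6 h and with DESeq2, and 2 without replicate 2 of either time. Tnrc6b, a GW182 scaffold that joins Argonaute to CCR4-NOT, rose from 72.7 and 64.9 to 97.4 and 96.3 CPM (0.49 ± 0.05, adjusted p = 3.6e-06), and Dgcr8, the partner of Drosha, fell by 0.25. Of 18 exosome and SKI genes only the cytoplasmic nuclease gene Dis3l was called, at 0.38 ± 0.07.

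Calls among nonsense-mediated decay factors were all in 1 direction. Of 16 tested 9 fell and none rose, with a median log2 fold change of -0.15 against 0.00 over all genes. Smg5, which helps bring decapping and deadenylation to UPF1 targets, fell from 226 and 223 to 178 and 177 CPM (-0.34 ± 0.03, adjusted p = 3.0e-06). Smg1, the UPF1 kinase, fell by 0.15 and Casc3, of the exon junction complex, by 0.19. Leaving out 1 library gave 5 (0 h, replicate 2) or 4 (6 h, replicate 1) that fell, and DESeq2 gave 5. The noncoding hosts of small nucleolar RNAs, spliced transcripts that are classical substrates of this pathway, fell too. Of 17 tested 12 fell and 1 rose, with a median of -0.27. Snhg12 fell from 54.2 and 58.6 to 43.1 and 43.6 CPM (-0.38 ± 0.05, adjusted p = 8.6e-05), Snhg1 by 0.29 and Snhg5 by 0.28, and Snhg11, the exception, rose from 24.1 and 25.9 to 33.5 and 31.8 CPM (0.38 ± 0.06). Exons of Snhg3 (-0.38) overlap another gene on the opposite strand, and its reads are uncertain.

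**Figure D3:**
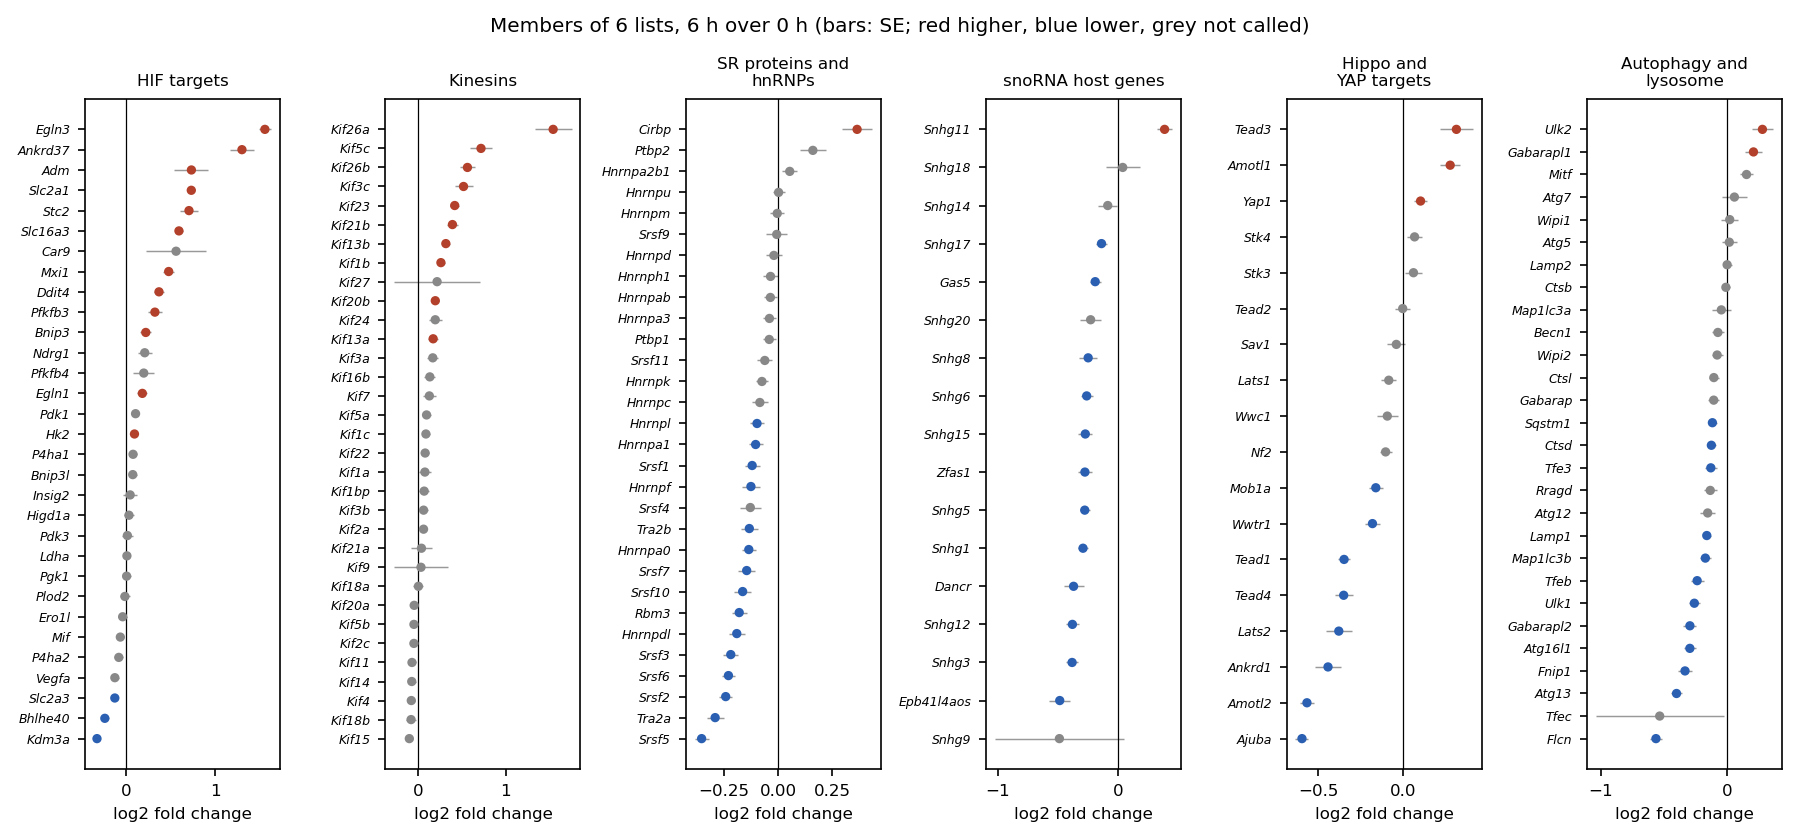
Log2 fold change, 6 h over 0 h, of each tested member of 6 lists, ordered by value, with SE bars. Red members were called higher, blue lower and grey were not called. In the HIF panel 12 of 31 members are red, in the kinesin panel 10 of 33, and blue members outnumber red by 15 to 1 in the panel of SR proteins and hnRNPs, 12 to 1 in that of snoRNA hosts, 8 to 3 in that of Hippo genes and 12 to 2 in that of autophagy genes.

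Genes with large rises came from unrelated functions. Egln3 encodes a prolyl hydroxylase that marks the hypoxia-inducible factors (HIF) for destruction (chromosome 12, 54178981 to 54203860, GRCm38). It measured 24.6 and 26.1 CPM at 0 h, 35.6 and 34.1 CPM at 3 h and 68.4 and 81.2 CPM at 6 h, a 2.95-fold rise (log2 fold change 1.56 ± 0.07, adjusted p = 4.5e-10). Prdm14, a repressor that keeps the naive state and DNA hypomethylation, went from 22.2 and 23.5 to 51.8 and 50.5 CPM (1.16 ± 0.08). Aire (chromosome 10, 78030022 to 78043610), known for tissue antigen expression in the thymus, went from 15.8 and 17.4 to 34.8 and 35.9 CPM (1.09 ± 0.08). In each of the 3 genes both 6 h libraries lay above both 0 h libraries with a gap wider than either group. Trerf1 (chromosome 17, 47140875 to 47361958), a zinc finger regulator, rose from 17.4 and 16.5 to 34.6 and 33.9 CPM. Kank3 rose from 33.6 and 35.5 to 60.2 and 64.7 CPM and the transcription factor gene Elf3 from 91.1 and 102 to 142 and 157 CPM. At lower levels, Cdk5r2, the p39 activator of the neuronal kinase CDK5, went from 1.71 and 1.67 to 5.61 and 5.10 CPM (1.66 ± 0.19) while Cdk5r1, its p35 counterpart, fell from 3.21 and 3.66 to 1.63 and 1.82 CPM (-0.99 ± 0.21, adjusted p = 0.0024). The metabotropic glutamate receptor gene Grm4 rose by 1.17, Rab39 by 1.16 and Stra6l by 1.21, all from below 2 CPM.

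The falls with the smallest p were in genes above 30 CPM. Aqp3, a channel for water and glycerol, fell from 77.5 and 79.6 to 34.1 and 31.6 CPM (-1.26 ± 0.05, adjusted p = 2.5e-10), with 67.9 and 64.4 CPM at 3 h. Spen (chromosome 4, 141467890 to 141538597), the corepressor that Xist recruits in X inactivation and that also acts in Notch signalling, fell from 327 and 334 to 189 and 183 CPM (-0.83 ± 0.03, adjusted p = 2.5e-10). Dido1 (chromosome 2, 180657964 to 180709999), a chromatin reader, fell from 305 and 322 to 187 and 191 CPM (-0.73 ± 0.04). In each of the 3 genes both 6 h libraries lay far below both 0 h libraries, and replicates were close. Trpm1, a cation channel gene, was at 49.5 and 49.6 CPM at 0 h and 25.7 and 25.8 CPM at 6 h (-0.94 ± 0.06). Etnk1, an ethanolamine kinase, fell from 391 and 383 to 270 and 258 CPM, and Ppp1r10, a nuclear regulator of protein phosphatase 1, from 157 and 161 to 107 and 98.98 CPM. Genes at low levels with large falls included Nr4a3 (-2.06 ± 0.18), Ripply3 (-1.94 ± 0.26) and Gpr83 (-1.65 ± 0.16). Fgfbp1, a carrier of fibroblast growth factors, went from 7.26 and 7.0002 to 2.89 and 2.63 CPM, and Dio2, the deiodinase that activates thyroid hormone, from 3.63 and 2.97 to 1.27 and 1.29 CPM.

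**Figure D4:**
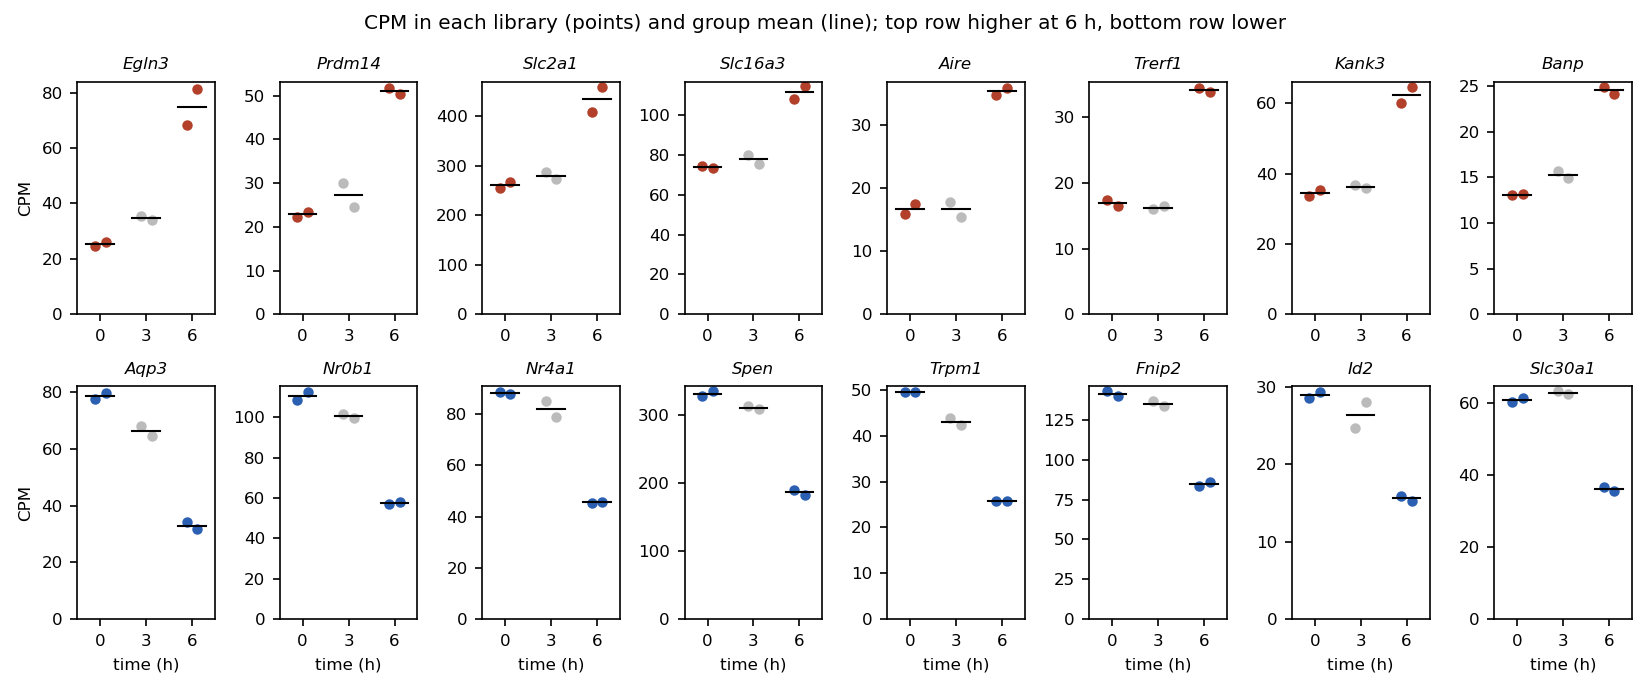
CPM in each library (points) and the mean of each time (lines) for 8 genes higher at 6 h (top) and 8 lower (bottom), with the 3 h libraries in grey. In each panel the 6 h points lie clear of the 0 h points, and for Aire, Trerf1, Fnip2 and Slc30a1 the 3 h points sit near the 0 h level.

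Most genes downstream of FGF and ERK, and most immediate early genes, which respond to that pathway within minutes, were called lower, in medium that holds a MEK inhibitor at both times. Of 21 FGF and ERK feedback genes 13 fell and 1 rose (median -0.30), the rise being lost without replicate 1 of 0 h or either 6 h library, and of 23 immediate early transcription factors 14 fell and none rose (median -0.36). Dusp6 and Dusp4, phosphatases of ERK, fell from 26.7 and 26.4 to 16.2 and 15.5 CPM (-0.74 ± 0.07) and from 22.3 and 17.9 to 12.6 and 12.6 CPM (-0.67 ± 0.10). Il17rd, a membrane inhibitor of FGF receptors, fell by 0.64. Among nuclear receptors of the immediate early class Nr4a1 fell from 88.7 and 87.8 to 45.4 and 45.8 CPM (-0.95 ± 0.05, adjusted p = 1.5e-09). Members at high levels moved less, such as Klf10 (-0.40 ± 0.04) and Ier2 (-0.32 ± 0.04). Of 20 dual specificity phosphatase genes 8 fell and 1, Dusp18, rose (0.46 ± 0.09), with 5 that fell without replicate 2 of 6 h.

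LIF signalling, which holds mouse ES cells in the naive state through STAT3, had 10 of 19 genes lower and 3 higher (median -0.30). Pim3, a kinase gene induced by STAT3, fell from 143 and 151 to 89.97 and 92.8 CPM (-0.69 ± 0.04), and Socs2, a feedback inhibitor of the receptor, by 0.54. Pim2 rose by 0.48 and Pml by 0.29. Of 21 naive pluripotency genes 12 fell and 3 rose. Nr0b1 fell from 109 and 113 to 56.98 and 57.9 CPM (-0.95 ± 0.04), Fbxo15 by 0.46 and Esrrb, at 723 and 761 CPM the most abundant of these, to 544 and 567 CPM (-0.42 ± 0.03). Prdm14 and Klf4 (0.17 ± 0.04) were among the members that rose. Of 12 core pluripotency genes 6 fell and 2 rose (median -0.09), and with DESeq2 4 fell and 1 rose. The core gene Rif1, a telomere and replication timing factor, fell from 695 and 731 to 553 and 558 CPM. Primed epiblast genes, active in the next state of development, had 6 of 20 higher and 6 lower. Lef1 rose from 29.8 and 29.3 to 45.8 and 44.8 CPM (0.62 ± 0.06), Sall2 from 6.01 and 5.15 to 9.65 and 10.3 CPM, and Otx2 from 3.16 and 4.03 to 6.09 and 11.004 CPM, while Foxd3, of the 6 falls that were 3 with DESeq2, fell from 31.9 and 29.3 to 23.6 and 20.2 CPM (-0.48 ± 0.08). Pou5f1 and Nanog, named here as defining markers of ES cells, were at high levels at both times. Means at 0 h and 6 h were 653 and 620 CPM for Pou5f1, which was not called. Fits with a replicate block, a GC offset or a feeder covariate did call Pou5f1 lower (-0.08, -0.09 and -0.08). For Nanog the means were 640.4 and 702 CPM, and it was called higher (0.13 ± 0.03). Its value was 0.11 without replicate 1 of 0 h, and it was not called in every fit without a library. Other markers went both ways. Sox2 and Tdgf1 were called higher (0.13 and 0.14), Zfp42 and Dppa5a lower (-0.29 and -0.14), as was Esrrb above, and Utf1 was not called.

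Genes of the BMP pathway, which with LIF sustains ES cells through ID proteins, showed large changes in few members. Id2 fell from 28.5 and 29.3 to 15.9 and 15.3 CPM (-0.89 ± 0.08, adjusted p = 5.7e-07) and Id1 from 36.3 and 31.4 to 25.1 and 22.4 CPM (-0.51 ± 0.08). The ligand Bmp2 fell from 2.13 and 2.41 to 0.603 and 1.02 CPM (-1.46 ± 0.28), and DESeq2 gave it no adjusted p. The receptor Bmpr2 rose by 0.21. Of 19 genes 6 were lower and 3 higher, and DESeq2 called 3 and 1. In the Hippo list 8 of 18 were lower and 3 higher, with 1 higher without replicate 2 of 0 h and with DESeq2. Ajuba, a LIM scaffold that restrains LATS kinases, fell from 169 and 167 to 112 and 110 CPM (-0.60 ± 0.04, adjusted p = 2.7e-08), Amotl2, which holds YAP in the cytoplasm, from 178 and 179 to 125 and 116 CPM (-0.57 ± 0.04), and the TEAD partner genes Tead1 and Tead4 by 0.35 each. Of 14 Nodal genes 3 rose and 1 fell. Lefty1, the Nodal antagonist, fell from 47.01 and 44.6 to 29.3 and 28.4 CPM (-0.67 ± 0.06), and Smad3, a signal transducer of that pathway, rose from 25.5 and 25.1 to 32.5 and 36.8 CPM (0.45 ± 0.07). Of 17 Notch genes 6 fell, and 3 did without replicate 2 of 6 h. Rbpj, the DNA-binding partner of Notch, fell from 196 and 201 to 142 and 154 CPM (-0.42 ± 0.04). Wnt targets had 3 of 18 higher and 3 lower, with Axin2 at -0.37 ± 0.05. Because auxins are indole compounds, targets of the aryl hydrocarbon receptor were listed too. Of 12 listed, Cyp1a1, Cyp1a2, Ugt1a6a and Gsta1 were not tested. Of the 8 tested 3 rose and none fell (median 0.13), and 2 rose with DESeq2. The median was -0.02 without replicate 1 of 0 h and 0.0008 without replicate 2 of 6 h. Whether the analog acts on this receptor was not tested. Cyp1b1 went from 99.5 and 95.2 to 135 and 127 CPM (0.43 ± 0.04, adjusted p = 3.4e-06) and Nqo1, a quinone reductase, from 58.4 and 56.2 to 70.97 and 69.9 CPM (0.30 ± 0.05).

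HIF targets were more often higher than lower. Of 31 tested 12 rose and 3 fell (median 0.09), beside 10% and 12.3% of all genes. Slc2a1, the main glucose transporter, rose from 255 and 267 to 409 and 460 CPM (0.73 ± 0.05, adjusted p = 2.2e-08), and Slc16a3, which exports lactate, from 74.5 and 73.5 to 108 and 115 CPM (0.59 ± 0.05). Ankrd37 rose from 5.24 and 5.42 to 11.5 and 14.7 CPM (1.30 ± 0.14), with 26.4% of its exon length overlapped on the opposite strand. Ddit4, an inhibitor of mTORC1, rose from 35.4 and 35.5 to 44.8 and 46.8 CPM (0.37 ± 0.05), and Mxi1, a MYC antagonist, from 25.04 and 26.1 to 35.8 and 35.5 CPM (0.48 ± 0.06). Kdm3a, a histone demethylase that hypoxia is known to induce, went the other way, from 292 and 301 to 234 and 238 CPM (-0.33 ± 0.03). The count of targets that rose was 7 without replicate 2 of 6 h and 7 with DESeq2. Among 15 HIF factors and regulators 4 rose and 3 fell, and 1 fell without replicate 2 of 0 h or replicate 2 of 6 h. Cited2, which competes with HIF1A for p300, rose by 0.37 and Ep300, the gene of p300, fell by 0.22.

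Promoters of the HIF targets are shown because ACGTG, the core of the hypoxia response element, could be counted in them. In RefSeq promoters of 300 bases (250 before to 50 after the start, build GRCm38.p6, both strands searched, overlapping matches kept), 21 of 35 promoters of 25 listed targets held ACGTG (60%), as did 12 of 18 for the targets that were called (66.67%). Among 14240 promoters of tested genes the share was 24.82%. It was 21.25% for promoters of all genes that rose and 29.94% for those of all genes that fell. A list of known HIF targets can be rich in this motif whether or not its genes move, and the matches are a description. The following are the 250 bases before the start for 3 genes that rose, each 5′ to 3′ on the gene's strand, with ACGTG in capitals. The match in Egln3 starts 229 bases before the start (chr12:54203875-54204124, minus strand), those in Slc16a3 start 27 and 14 bases before it (chr11:120948817-120949066, plus strand) and that in Ddit4 187 bases before it (chr10:59951771-59952020, minus strand).
Egln3: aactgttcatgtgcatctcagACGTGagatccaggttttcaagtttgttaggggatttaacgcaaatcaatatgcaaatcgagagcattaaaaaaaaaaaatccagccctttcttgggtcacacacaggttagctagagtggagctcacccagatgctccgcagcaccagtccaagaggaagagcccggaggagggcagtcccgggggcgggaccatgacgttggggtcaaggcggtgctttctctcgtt
Slc16a3: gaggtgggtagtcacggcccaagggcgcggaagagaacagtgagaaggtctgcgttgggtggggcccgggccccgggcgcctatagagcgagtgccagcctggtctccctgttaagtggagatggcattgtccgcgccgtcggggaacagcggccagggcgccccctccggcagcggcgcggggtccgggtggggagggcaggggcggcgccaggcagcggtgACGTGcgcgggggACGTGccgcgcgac
Ddit4: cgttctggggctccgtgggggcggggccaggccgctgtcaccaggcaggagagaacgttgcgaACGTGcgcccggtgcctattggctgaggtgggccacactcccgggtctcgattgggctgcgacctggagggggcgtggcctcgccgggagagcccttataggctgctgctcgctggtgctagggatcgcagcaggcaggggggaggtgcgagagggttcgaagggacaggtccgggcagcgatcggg

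Of 25 cholesterol synthesis genes, which the SREBP2 factor drives when sterols are low, 12 fell, none rose and 13 were not called (median -0.18, values from -0.58 to 0.62). Insig1, which holds SREBP in the endoplasmic reticulum, fell from 145 and 151 to 93.6 and 104 CPM (-0.58 ± 0.05), and Cyp51, a sterol demethylase, from 125 and 127 to 88.3 and 92.97 CPM. In these genes both 6 h libraries lay below both 0 h libraries. The sterol regulatory element, searched by its consensus on both strands, was in 0 of 20 promoters of 17 of these genes and in 0.09% of all 32851 promoters, which says only that the exact consensus is not in these windows. Fatty acid synthesis genes had 3 of 21 lower and 1 higher.

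Autophagy and lysosome genes had 12 of 28 lower and 2 higher (median -0.12), with 1 higher without replicate 2 of 0 h or either 6 h library and 0 with DESeq2. The folliculin complex, which passes amino acid signals from the lysosome to TFE3 and is known for its part in leaving the naive state, had 3 genes lower. Flcn fell from 63.3 and 64.8 to 44.7 and 41.9 CPM (-0.57 ± 0.05, adjusted p = 7.5e-07), Fnip1 from 89.6 and 100.04 to 72.7 and 77.6 CPM (-0.34 ± 0.05), and Fnip2, named for a seed site described below, from 143 and 139.8 to 83.5 and 85.8 CPM (-0.74 ± 0.04, adjusted p = 3.3e-09). The initiation kinase gene Ulk1 fell by 0.26 and its scaffold Atg13 by 0.40. Of 31 genes of the integrated stress response and amino acid supply 14 fell and 5 rose, 8 fell without replicate 2 of 0 h, and 3 rose without replicate 1 of 6 h and with DESeq2. The amino acid transporter genes Slc7a5 and Slc3a2, which encode the 2 chains of 1 carrier, fell by 0.28 and 0.24. Chac1, which degrades glutathione and is a sensitive readout of ATF4, rose from 2.85 and 3.52 to 6.63 and 7.62 CPM (1.16 ± 0.17, adjusted p = 9.7e-05). Among 247 solute carrier genes 35 fell and 29 rose, near the share of all genes, and 17 rose without replicate 1 of 6 h. The zinc exporter genes Slc30a1 and Slc30a2 were among those with the smallest p, from 60.5 and 61.5 to 36.8 and 35.6 CPM (-0.75 ± 0.05) and from 49.2 and 51.3 to 30.2 and 30.9 CPM (-0.72 ± 0.06).

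Among genes of RNA processing and of cytosolic translation, calls were mostly lower and of small size. Fewer members of the lists below were lower in the fit without scaling factors. There 10 of 30 SR proteins and hnRNPs and 11 of 34 ribosome biogenesis genes were lower. The same fit had 19 of 83 cytosolic ribosomal protein genes and 6 of 35 translation factors lower. Of 30 SR proteins and hnRNPs, which select splice sites, 15 fell and 1 rose (median -0.10), and 8 fell without replicate 2 of 0 h and 10 with DESeq2. Srsf5 fell from 471 and 484 to 374 and 373 CPM (-0.35 ± 0.03, adjusted p = 9.3e-07), Tra2a by 0.29 and Srsf2 by 0.24. Cirbp, a cold-inducible RNA binding protein, rose from 24.8 and 26.9 to 33.04 and 33.6 CPM, and its relative Rbm3 fell by 0.18. Of 34 ribosome biogenesis genes 14 fell and none rose (median -0.09, 9 with DESeq2), among them Tsr1 (-0.35 ± 0.04) and Gnl3 (-0.27 ± 0.04). Among the 83 genes for proteins of the cytosolic ribosome 44 fell, and no member rose, at a median of -0.10. The median was -0.06 without scaling factors, and 22 fell with DESeq2. Leaving out 1 library gave 29 (0 h, replicate 1), 15 (0 h, replicate 2), 26 and 27 (3 h), 22 (6 h, replicate 1) or 48 (6 h, replicate 2) that fell. Of 77 mitochondrial ribosomal protein genes 2 fell and 2 rose. Of 35 translation factors 11 fell and 1 rose, a share lower near that of the most abundant quintile of all genes, and 6 fell without replicate 2 of 0 h and 7 without either 3 h library. Eif1, which sets start codon choice, fell from 332 and 322 to 248 and 233 CPM (-0.45 ± 0.04), and Eif4g3, a scaffold of the cap complex, rose from 85.6 and 83.96 to 113 and 108 CPM (0.38 ± 0.04, adjusted p = 9.7e-06).

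Cell cycle genes were listed by phase, and the difference between phases was not tested. Of 36 G1 and S phase genes 19 fell and 2 rose (median -0.13). Orc1 fell from 74.1 and 70.5 to 53.004 and 55.98 CPM (-0.41 ± 0.05) and Mcm4, a subunit of the replicative helicase, from 349.8 and 359 to 303 and 307 CPM (-0.22 ± 0.03). Of 30 G2 and mitosis genes 4 rose and 3 fell (median 0.00), with 5 that fell without replicate 2 of 6 h. Kif23, a motor of cytokinesis, rose from 122 and 124 to 152 and 175 CPM (0.42 ± 0.05). Genes named as kinesins, motors that move along microtubules, with the kinesin binding protein gene Kif1bp among them, had 10 of 33 higher and none lower (median 0.09), 9 to 11 higher in fits without a library and 1 lower without replicate 2 of 6 h. Kif26a rose from 1.19 and 1.90 to 4.52 and 4.62 CPM, Kif26b from 36.5 and 33.9 to 57.8 and 46.3 CPM (0.56 ± 0.08) and Kif13b by 0.31. Of 27 neuronal genes 6 rose and 3 fell. Nefh, a neurofilament gene, rose from 16.6 and 12.1 to 23.8 and 24.9 CPM (0.77 ± 0.11) and Mapt, the gene of tau, fell by 0.31. Potassium channel genes had 8 of 39 higher and 2 lower. Leaving out 1 library gave 4 (0 h, replicate 1), 5 (6 h, replicate 1) or 3 (6 h, replicate 2) that were higher, and DESeq2 gave 2. Of 29 p53 targets 13 fell and 3 rose, with 1 rise without replicate 2 of 0 h and with DESeq2. Gtse1 fell from 190.5 and 204 to 152 and 155 CPM, and Rrm2b, the p53-induced ribonucleotide reductase subunit, rose from 12.8 and 11.3 to 18.2 and 21.1 CPM (0.71 ± 0.09). Cdkn1a, the best known p53 target, stayed at 433 and 441 CPM at 0 h and 443 and 425 CPM at 6 h (-0.01 ± 0.03, adjusted p = 0.88).

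Chromatin regulators had calls in both directions within each class listed. Of 20 lysine demethylases 6 rose and 4 fell. Only 2 fell with DESeq2 and in every fit without 1 library except that without replicate 2 of 6 h, where 3 did. Kdm7a rose from 16.6 and 18.2 to 24.3 and 25.8 CPM (0.53 ± 0.07), and the H3K9 demethylase genes Kdm4b and Kdm4c by 0.45 and 0.30, while Kdm3a and Kdm3b fell. Of 23 Polycomb genes 6 fell and 2 rose. The core PRC2 gene Eed fell from 264 and 273 to 211 and 225 CPM (-0.30 ± 0.04), and Ezh1, the alternative methyltransferase, rose from 32.4 and 33.3 to 42.3 and 45.8 CPM (0.42 ± 0.06), as did Cbx2, a reader of PRC1, from 17.5 and 17.8 to 25.8 and 26.5 CPM (0.57 ± 0.08). Of 16 DNA methylation genes 5 fell and 4 rose. Uhrf1, which guides maintenance methylation, fell from 545 and 538 to 465 and 459.6 CPM (-0.23 ± 0.03), its relative Uhrf2 rose by 0.44, and Tet3 rose from 14.05 and 11.9 to 20.8 and 18.04 CPM (0.58 ± 0.10). In the circadian clock list 7 of 18 fell and 1 rose (median -0.24), the rise being lost without any 1 of the 0 h or 6 h libraries and with DESeq2. The repressor genes Cry1 and Nr1d1 fell from 38.1 and 43.7 to 27.5 and 30.8 CPM (-0.49 ± 0.07) and from 25.9 and 24.9 to 18.6 and 19.3 CPM (-0.42 ± 0.07). Among 368 genes named Zfp 72 fell and 36 rose, and 23 rose without replicate 2 of 0 h or replicate 2 of 6 h. Zfp568 fell from 262 and 270.3 to 188 and 192 CPM (-0.48 ± 0.04), and Zfp395 rose from 22.2 and 22.5 to 35.1 and 36.6 CPM (0.68 ± 0.06). The MYC antagonist gene Mnt fell from 97.2 and 98.98 to 58.2 and 60.6 CPM (-0.72 ± 0.04) while Mycn rose from 75.8 and 82.5 to 92.3 and 102 CPM (0.29 ± 0.05).

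**Figure D5:**
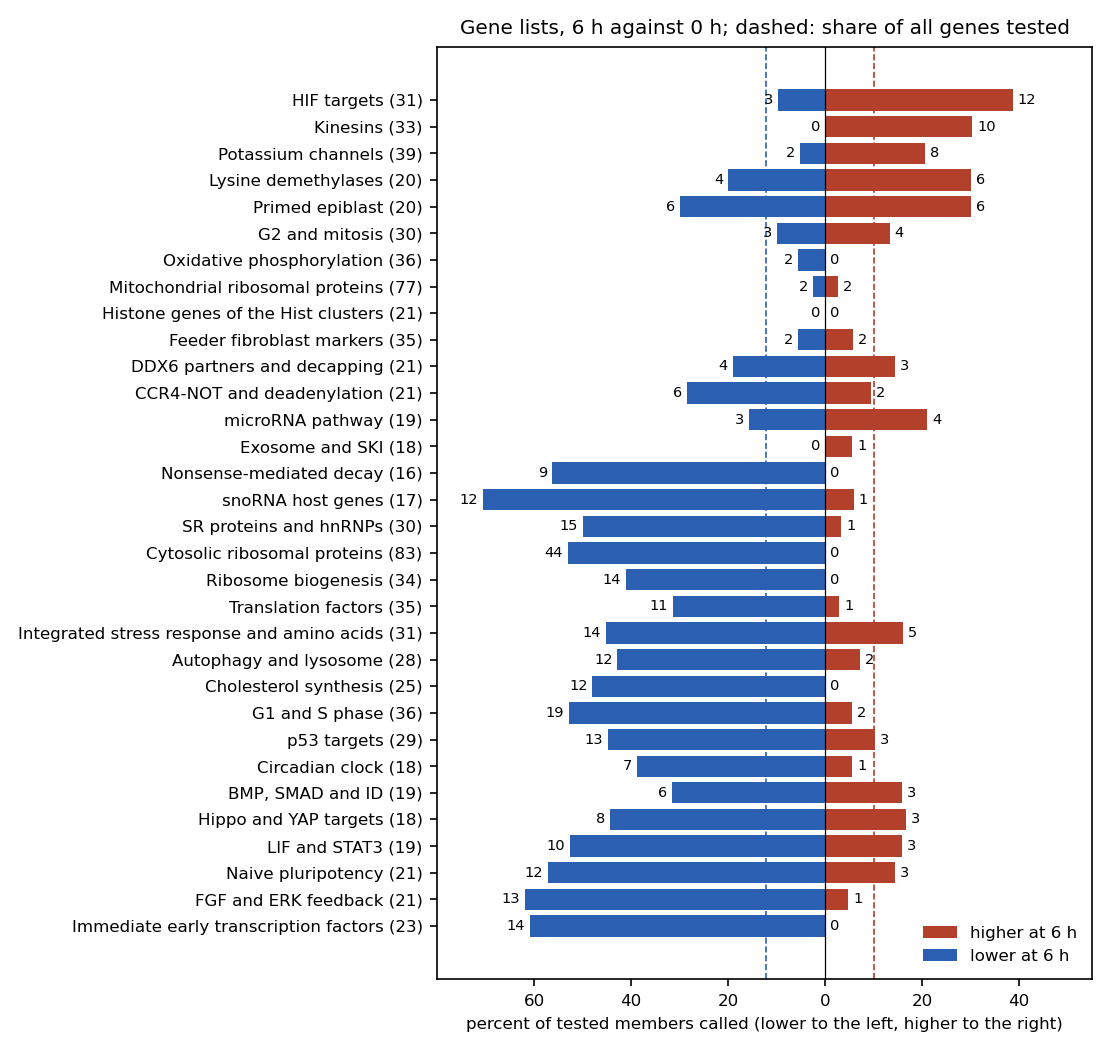
Percent of the tested members of 32 gene groups that were called higher (red, to the right) or lower (blue, to the left), with the number of members beside each bar and the number tested in brackets. The dashed lines mark 10% and 12.3%, the shares of all genes tested. The bars of snoRNA hosts, FGF and ERK feedback, immediate early and naive pluripotency genes are the longest to the left, and among the groups drawn the bar of HIF targets is the longest to the right. The aryl hydrocarbon receptor targets and SOX factors are among groups not drawn.

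Some groups had few or no calls. The proteasome and SCF list, given beside them, had 17.9% of its members called, near the 22.3% of all genes. DESeq2 called no rise in that list. None of 21 tested histone genes of the Hist clusters was called by edgeR or DESeq2, with 1 at an unadjusted p under 0.05 in edgeR and a median of 0.15. Of 36 nuclear genes of oxidative phosphorylation 2 fell, with 4 without replicate 2 of 6 h, and of 28 genes of the proteasome and SCF ligases, the route by which the degron acts, 4 fell and 1 rose, with 2 falls without replicate 1 of 0 h or either 3 h library and with DESeq2, and no rise without replicate 2 of 0 h. The feeder fibroblast markers had 2 of 35 higher and 2 lower, at a median of -0.02 (0.02 without scaling factors). Leaving out 1 library gave 0 and 9 (6 h, replicate 1) or 0 and 6 (0 h, replicate 2). The summed abundance of feeder and ES cell RNA in a library cannot be told apart from the level per cell. Of 3 blood cell markers Hbb-bs had 0 counts in the 4 libraries and Ptprc 30 to 42, while the macrophage marker Cd68 measured 15.3 and 14.8 CPM at 0 h and 14.8 and 14.3 CPM at 6 h. Their part in the results was not tested. Among genes with at most 3 counts in both libraries of 6 h, the protease gene Usp18, an interferon target, had 13 and 12 counts at 0 h and 3 and 3 at 6 h, and the receptor gene Gpr139 had 14 and 11 at 0 h and 2 and 3 at 6 h. Neither call was made in every fit without a library, and DESeq2 gave neither gene an adjusted p.

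Sites for the miR-290 and miR-302 seed were searched because DDX6 acts in silencing by microRNAs. The mature sequences below are RefSeq's (GRCm38.p6). They share the seed AAGUGCU at bases 2 to 8, in capitals, and come from the clusters on chromosomes 7 and 3.
mmu-miR-291a-3p: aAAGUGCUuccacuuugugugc
mmu-miR-294-3p: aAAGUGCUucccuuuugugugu
mmu-miR-295-3p: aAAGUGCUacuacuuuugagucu
mmu-miR-302b-3p: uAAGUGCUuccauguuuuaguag
mmu-miR-302d-3p: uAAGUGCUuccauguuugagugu

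The site that pairs with this seed is AGCACTT. Of 13504 tested genes with an annotated 3' UTR of at least 50 nt, 2368 held it. Of these 13.39% were higher and 15.12% lower, against 10.53% and 13.06% of the 11136 genes without it, so both shares were larger among genes with a site. Length moved with this, since 1113 of the 2368 genes were in the longest quintile of 3' UTRs. Within quintiles of length, the share higher with a site against without was 11.48% against 7.69%, 12.72% against 9.22%, 14.77% against 11.62%, 13.07% against 12.63% and 13.3% against 13.04%, from short to long. The share lower was 8.2% against 9.96%, 12.72% against 11.71%, 11.14% against 13.61%, 15.12% against 15.49% and 17.25% against 16.37%. The share higher was thus larger with a site in all 5 quintiles, by less in the longest ones, and the share lower went both ways. Genes with a site were few in the shortest 2 quintiles, at 61 and 173, of which 7 and 22 were higher. The longest 2 held 635 and 1113. The differences between genes with and without a site were not tested. The median log2 fold change was 0.0088 with a site and 0.0022 without, a difference of 0.0066 with an SD of 0.0029 over the 2 libraries of 6 h. It was 0.0098 for the 474 genes with the 8mer (a site followed by A) and -0.0049 for the 438 genes with 2 or more sites. Of 2945 sites 159 (5.4%) followed directly on TTTAATCCC, a stretch found in the B1 family of mouse repeats. The 98 genes whose sites were all of that kind had a median of 0.0304, with 12 higher and 15 lower.

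The sites below are from the genes with a site and the smallest p in each direction, each with the 15 bases before and 1 base after it, 5′ to 3′ on the gene's strand, with the site in capitals. The first 5 genes rose and the last 5 fell.
Nav1: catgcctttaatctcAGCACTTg
Banp: agctggcgatgctggAGCACTTg
Lef1: tcctgtaaaaagcccAGCACTTg
Hap1: gttgtaagctgggtcAGCACTTc
Tnrc6b: tgcggggaacatgctAGCACTTg
Fnip2: agaaagacttagcccAGCACTTc
Mnt: actatccatgtaataAGCACTTg
Etnk1: gatgcttgatcgataAGCACTTt
Il17rd: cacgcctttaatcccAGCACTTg
Mme: cccaagtcagaccttAGCACTTg

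Banp, a regulator of CpG-rich promoters, rose from 13.01 and 13.2 to 24.9 and 24.2 CPM (0.91 ± 0.08), Nav1 by 0.51, Hap1 by 0.47, and Lef1 and Tnrc6b as given above. Mme, the gene of neprilysin, fell from 83.9 and 86.2 to 52.5 and 54.2 CPM (-0.67 ± 0.05), beside Fnip2, Mnt, Etnk1 and Il17rd. Among 9 published targets of the miR-290 family 1 rose and 2 fell. Lats2, a Hippo kinase and a target followed in ES cells, fell from 24.98 and 23.4 to 19.6 and 17.6 CPM (-0.38 ± 0.08, adjusted p = 0.0018), and the cell cycle inhibitor Cdkn1a did not move, as above. Irf2, the 1 that rose (0.56 ± 0.20), and Casp2 (-0.24 ± 0.07) were not called in every fit without a library.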

How the data were processed

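Poly(A) RNA from 6 libraries of mouse ES cells, 2 at each of 0, 3 and 6 h, was sequenced single-end with a stranded kit, per the labels' protocols. The authors deposited raw counts of reads per gene. Fastp 0.22.0, HISAT2 2.2.1, featureCounts 2.0.3 and GRCm38 are named in the submitters' processing notes; which annotation release, strand option and rule for multimapping reads were used is not given in the sources used here. Genes that share or overlap exons are therefore uncertain.

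From the deposited counts, genes were filtered with filterByExpr (minimum count 10), which kept 15748 genes and 99.89% of counts, scaled by TMM and fitted with edgeR 4.0.16 (R 4.3.3, glmQLFit and glmQLFTest, 3 group means, 3 residual degrees of freedom). The contrast was 6 h minus 0 h, two-sided, called at a Benjamini-Hochberg adjusted p under 0.05 over all genes tested. Unless another tool is named, adjusted p-values are from this fit. Each SE was the absolute log2 fold change divided by the root of the F statistic, and CPM used TMM-scaled library sizes. On simulated data with the same library sizes 60%, 76%, 80% and 98% of genes changed 1.25-, 1.5-, 2- and 3-fold were recovered, with 11 false calls of 168. The simulation changed 50 genes at each fold among 15546 tested, a far smaller share than the 22.3% called in the data. Its rates therefore need not hold for the comparison described. Alternatives were DESeq2 1.42.0, limma 3.58.1 (voom), other scaling and filters, a GC offset, a feeder covariate, thinned counts and leaving out each library.

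Members and gene lists were chosen with earlier results of these data known. Genes were named by rule: Ddx6, the largest rises and falls, the smallest p and the most abundant genes changed at least 1.5-fold in each direction, up to 4 called members of each list by p plus up to 2 in the minority direction, genes near 0 counts, and the seed-site genes with the smallest p. Ldb1 and Lars2 were described after their values were seen where the rule did not name them for that reason. Transcript features came from GENCODE M21, and promoters and miRNAs from RefSeq (GRCm38.p6). Symbols matched 55227 of 55487 gene IDs. Results for a few genes are not reported here.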

Additional observations from a re-analysis of the deposited data

How the results depend on the processing

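Against 3515 calls, 2029 genes were called without a filter on low counts (790 higher, 1239 lower, 207 higher by at least 1.5-fold), 2019 of them among the 3515, and 1701 with DESeq2 (613 higher, 1088 lower, 134 and 104 by at least 1.5-fold). Without each library in turn 2488 to 3092 genes were called, 1114 to 1459 higher and 1365 to 1633 lower, with 271 to 336 higher and 169 to 201 lower by at least 1.5-fold; fewer samples enter these fits. Ldb1 ranged from -0.10 without replicate 2 of 6 h to 3.30 without replicate 1 of 6 h. Over all genes, deviations of samples of equal number were hardly correlated (r = 0.037, 0.040 and -0.021). Mean log2 CPM of feeder markers was higher in replicate 1 than in replicate 2 at 0 h (8.19 and 8.08) and 6 h (8.16 and 8.05). At 3 h it was nearly equal (7.99 and 7.98). What samples of equal number share is not in the labels, so whether the numbers pair them is not settled here. A replicate block gave 4226 calls (1915 higher, 2311 lower) that held all 3515. Unscaled library sizes kept 3032 of the calls. A fit of only the 4 libraries compared gave 3090 calls (1467 higher, 1623 lower), 3070 of them among the 3515. DESeq2 gave no adjusted p to 3053 genes, which it therefore could not call. The median difference for seed sites (0.0066) was 0.0021 with the shortest 3' UTR, 0.012 with a GC offset and 0.0027 to 0.0062 without a library. That between 3' UTR GC quintiles (0.0474) was 0.0213 with a GC offset and 0.0283 to 0.06 without a library. That between quintiles of GC at the third codon position (0.0383) was 0.0137 with a GC offset and 0.0192 to 0.0656 without a library. That between coding length quintiles (0.0344) was 0.0367 at 10 CPM or more, 0.0307 with a GC offset and 0.0324 to 0.036 without a library. The cause of these shifts was not tested. With 2 libraries a group and 3 counts worth 0.139 to 0.181 CPM, small changes of genes in the lowest quintile were not detectable at this depth.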
